A study of Mus musculus with 2 samples.

Results

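Nuclear receptors are transcription factors that bind a small lipid-soluble ligand, or none that is known, and act on DNA. A list of 40 of them was described in the intestine of the mouse embryo, taken as a list of gene symbols, and all 40 were found among the 21474 protein-coding genes in the tables. They were sorted into 4 classes: 7 lipid and xenobiotic sensors, 7 vitamin receptors with the retinoid X receptors (RXR), 7 steroid and thyroid hormone receptors, and 19 orphan receptors. Another 8 receptors of the mouse family, among them Hnf4a and the bile acid receptor Nr1h4, are not members and appear only for comparison.

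The study sequenced total RNA longer than 200 nt from whole intestine of B6NCrl embryos at embryonic day 16.5. It holds 1 group of 2 libraries, replicate 1 and replicate 2, each from a healthy mixed-sex pool of embryos and from 10 ng of RNA with spike-ins added. The second pool held 41 embryos and the size of the first is not given in the labels, and both pools carry a single donor identifier. No treatment, genotype or second tissue is present, so what can be asked is which receptors the fetal gut holds, at what level and in which transcript forms, and how far the 2 pools differ.

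As background, most of these receptors share a DNA-binding domain of paired zinc fingers and a ligand-binding domain whose last helix moves when a ligand docks, which exchanges corepressors for coactivators. Thyroid hormone, retinoic acid, vitamin D, fatty acid and oxysterol receptors bind DNA as heterodimers with an RXR, whereas steroid receptors bind as homodimers. In the intestine these proteins are known for control of fat uptake, cholesterol export, detoxification, calcium uptake and epithelial maturation.

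Levels are given as TPM, in which reads are divided by transcript length and scaled to the same total in each library, which allows genes to be compared. The libraries held 42040766 and 41480301 estimated reads, of which the members took 0.0758% and 0.0792% of the reads on genes. Of 8 epithelial, 4 smooth muscle and 5 enteric nerve marker genes all were detected, and of 4 kidney markers none was. Markers of neighbouring organs were present too: 5 of 5 pancreas and 5 of 5 liver genes were detected, with summed levels of 4288 and 5557 TPM for pancreas and 498 and 342 for liver in replicates 1 and 2. The 6 adrenal and gonad markers summed to 60.4 TPM in replicate 1 and 6.87 in replicate 2, although 1 of the 6, Cyp17a1, was near 0 in both at 0.14 and 0.13. In whole tissue, fewer cells of a type and less RNA per cell cannot be told apart.

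A receptor was counted as detected where each library gave it 1 TPM or more, and 30 of the 40 reached that level, beside 62.0% of all protein-coding genes. Their levels were moderate. The median over the members was 5.17 TPM against 4.46 over all protein-coding genes, and among detected genes only it was 10.3 against 17.1. A level of 10 TPM was reached by 15 members, 37.5%, against 38.4% of coding genes. The 10 most abundant members supplied 70.1% and 72.1% of the receptor total, which was 454 TPM in replicate 1 and 487 in replicate 2. By class, lipid and xenobiotic sensors held 34.8% ± 0.234 of the receptor total (SD, n = 2), orphan receptors 30.2% ± 1.21, vitamin receptors with RXR 18.8% ± 0.782, and steroid and thyroid receptors 16.3% ± 0.659. In reads without length scaling the orphan class led instead, at 31.9% against 26.7% for the lipid sensors. All 7 lipid sensors were detected, 6 of 7 in the vitamin class, 4 of 7 in the steroid and thyroid class and 13 of 19 orphans.

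**Figure D1:**
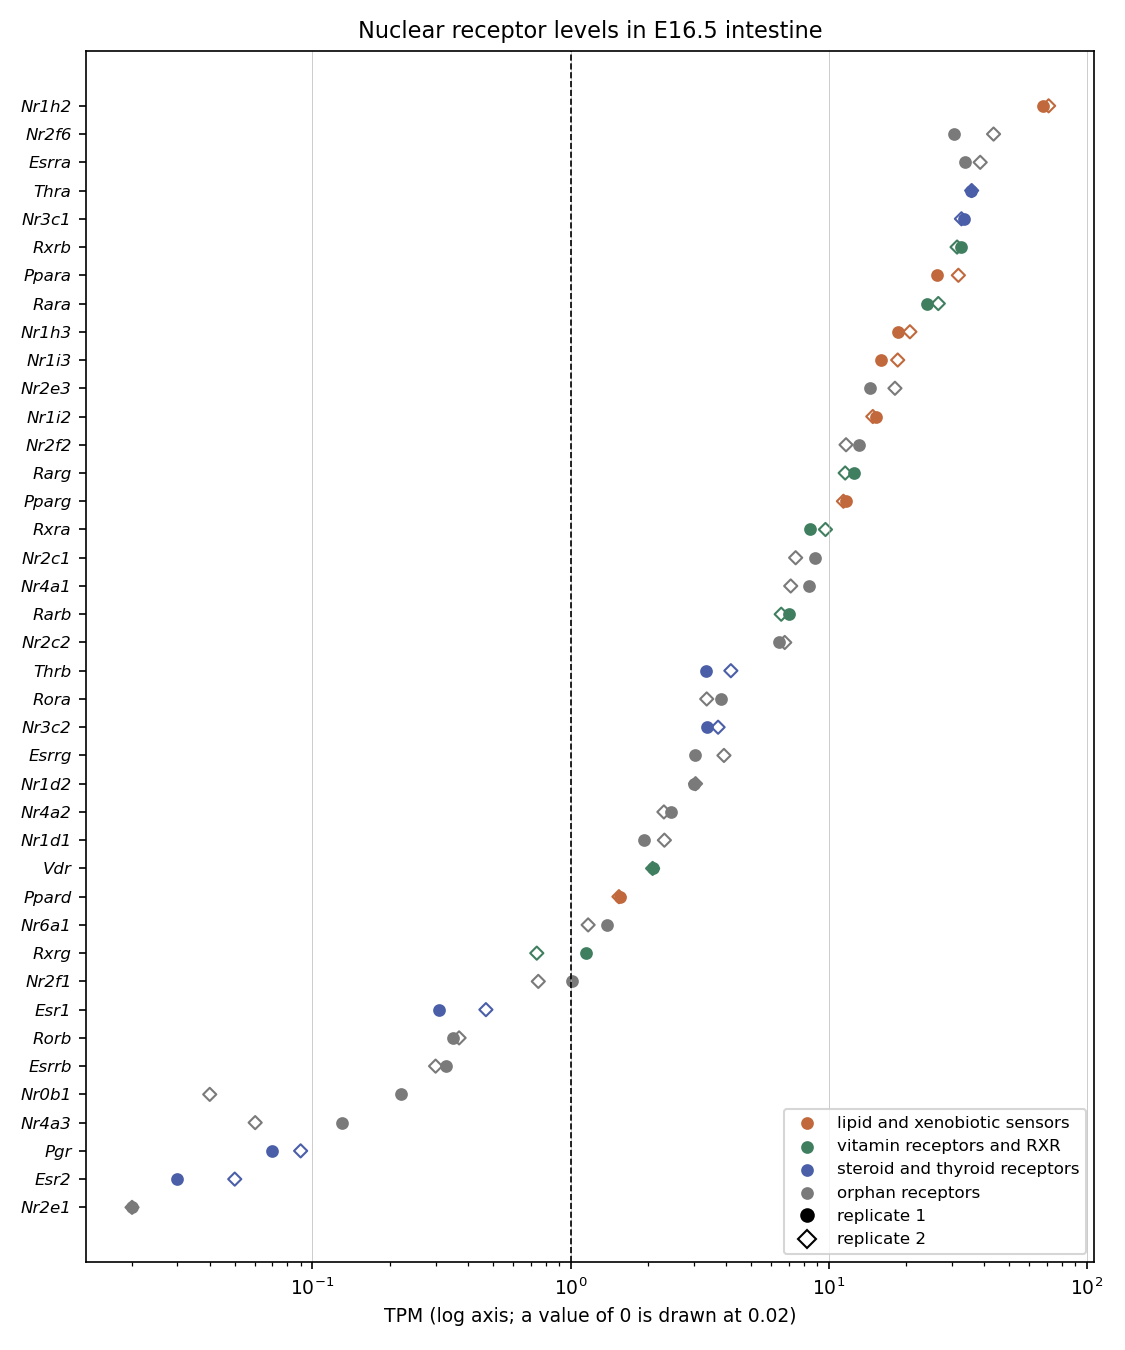
Level of each of the 40 receptors in replicate 1 (filled circles) and replicate 2 (open diamonds), as TPM on a log axis, coloured by class and sorted by mean. The dashed line is the detection level of 1 TPM, and a value of 0 is drawn at 0.02. The list runs from Nr1h2 at 67.8 and 71.2 TPM to Nr2e1 with no read, and 30 receptors lie right of the line in both libraries.

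The plot of levels by receptor shows a gradual slope below its first member. Ranked by mean, 18 of the 39 steps between neighbours were larger than the spread of the libraries, in that both values of the upper gene exceeded both values of the lower one, and 21 were not. Nr1h2 stood clear of all others. Nr2f6, Esrra and Thra overlapped each other, as did Rxrb, Ppara and Rara in neighbouring pairs, so their exact order is not settled by these libraries.

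Among the lipid sensors the liver X receptors led. Nr1h2 (LXR beta, mm10 chr7:44549616-44553951, minus strand), an oxysterol sensor that switches on cholesterol export genes, was the most abundant of all 40 members at 67.8 TPM in replicate 1 and 71.2 in replicate 2. Its relative Nr1h3 (LXR alpha), which is more restricted to liver, gut and macrophages, stood at 18.7 and 20.7. Folds between receptors are given on the scale of TPM + 0.1, averaged over the libraries as logs, which understates the change of low genes. The gap was 3.53-fold, log2 1.82 ± 0.05 (SD, n = 2), and held in both libraries. The oxysterol-forming enzymes Cyp27a1 and Ch25h were at 6.81 and 6.49 and at 3.53 and 3.18 TPM. Among textbook targets, the lipogenic factor Srebf1 reached 68.1 and 80.3 TPM, whereas the cholesterol exporter Abca1 was at 2.0 and 2.05. Target levels describe the tissue only, since each of these genes answers to other factors as well.

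The fatty acid receptors were spread over more than an order of magnitude. Ppara, the activator of fatty acid oxidation, stood at 26.3 and 31.8 TPM. Pparg, best known for fat cell formation, stood at 11.6 and 11.4, and Ppard, a broadly expressed family member, at 1.56 and 1.54. All 3 pairs were apart in both libraries, and the Ppara level exceeded the Ppard level 17.6-fold. Among classical PPAR targets, Plin2, which coats lipid droplets, stood at 212 and 269.6 TPM. Pdk4, a kinase that restrains pyruvate oxidation, was low in both libraries at 3.02 and 2.62.

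The xenobiotic sensors Nr1i2 (pregnane X receptor) and Nr1i3 (constitutive androstane receptor) were both present at similar levels. Nr1i2 stood at 15.3 and 14.8 TPM and Nr1i3 at 15.9 and 18.5. The pair was not apart, at log2 0.19 ± 0.18 in favour of Nr1i3, and the sign turned to -0.34 in reads without length scaling. Of 3 textbook targets, 2 were at or near 0. Cyp3a11, the hepatic drug-metabolising enzyme induced through Nr1i2, was at 0.26 and 0.14 TPM, and Cyp2b10, induced through Nr1i3, had 0 reads in both libraries. The drug efflux pump Abcb1a was detected, at 7.69 and 10.2 TPM.

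The upstream sequences of these xenobiotic sensors and of Nr2e3 are shown because they hold few CpG dinucleotides, unlike that of Esrra, which is given beside them. Each is from RefSeq windows on GRCm38.p6 (mm10), 5′ to 3′ on the gene's strand, ending at or shortly before the start that the window was built on, and capitals mark every CG. The positions are chr16:38294825-38295074, minus strand for Nr1i2, chr1:171213720-171213969, plus strand for Nr1i3, chr9:59950118-59950329, minus strand for Nr2e3, and chr19:6921814-6922058, minus strand for Esrra.
Nr1i2: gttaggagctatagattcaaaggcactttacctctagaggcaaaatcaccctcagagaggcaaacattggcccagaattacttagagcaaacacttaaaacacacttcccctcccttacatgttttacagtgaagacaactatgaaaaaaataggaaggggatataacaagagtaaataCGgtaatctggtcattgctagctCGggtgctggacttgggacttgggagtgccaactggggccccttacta
Nr1i3: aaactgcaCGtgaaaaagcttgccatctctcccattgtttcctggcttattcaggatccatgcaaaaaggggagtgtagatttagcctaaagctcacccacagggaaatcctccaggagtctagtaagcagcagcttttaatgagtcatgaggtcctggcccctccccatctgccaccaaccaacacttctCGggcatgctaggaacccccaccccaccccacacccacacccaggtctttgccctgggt
Nr2e3: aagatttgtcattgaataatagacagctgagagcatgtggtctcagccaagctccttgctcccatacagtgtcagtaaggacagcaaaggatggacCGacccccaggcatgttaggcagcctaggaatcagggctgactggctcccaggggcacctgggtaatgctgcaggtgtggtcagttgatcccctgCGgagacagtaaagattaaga
Esrra: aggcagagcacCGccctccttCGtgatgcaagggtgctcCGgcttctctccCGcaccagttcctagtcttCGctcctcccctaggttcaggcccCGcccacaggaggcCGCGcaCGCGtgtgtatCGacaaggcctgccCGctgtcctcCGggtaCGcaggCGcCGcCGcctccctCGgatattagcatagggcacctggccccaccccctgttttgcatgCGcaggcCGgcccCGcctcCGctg
Over windows from 250 bases before to 50 after the start, the ratio of observed to expected CpG was 0.130 for Nr1i2, 0.144 for Nr1i3 and 0.235 for Nr2e3, against 0.781 for Esrra. Low ratios were not limited to the genes printed here. The Nr2f2 window, at the start of Nr2f2-202, was lower still at 0.109, and the Nr1h3 windows had 0.277 and 0.394. The Nr2e3 window holds the start of transcripts at 7.54 and 9.0 TPM, of 14.4 and 18.1 for the gene, and its retained-intron model Nr2e3-202 begins farther upstream. Windows were found for 38 members, and taking each gene's highest window the median ratio was 0.715, against 0.631 over 16522 coding genes with a window. A ratio of at least 0.6 was reached by 23 of the 38, 60.5%, against 52.5% of coding genes. The share was 18 of 28 among detected members and 5 of 10 among the others, and the CpG-poor starts of Nr1i2 and Nr1i3 belonged to genes at 14.8 to 18.5 TPM.

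In the vitamin class, the 3 retinoic acid receptors formed a ladder. Rara, the broadly expressed member, stood at 24.1 and 26.6 TPM, Rarg, found in skin and skeletal precursors among other places, at 12.6 and 11.6, and Rarb, itself a textbook retinoic acid target, at 7.02 and 6.55. Every pair was apart, with Rara over Rarg by 2.09-fold and Rarg over Rarb by 1.77-fold. The supply side was well represented. Aldh1a1 and Aldh1a2, which make retinoic acid from retinal, were at 74.9 and 72.7 and at 58.9 and 52.4 TPM, and Aldh1a3 at 23.2 and 23.3. Dhrs3, which returns retinal to retinol, led the list of 21 ligand enzymes at 104 and 113. The degrading enzymes were low, with Cyp26b1 at 1.13 and 1.39, Cyp26a1 at 0.39 and 0.50 and Cyp26c1 at 0.02 and 0.00.

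The Rarb start is shown for its direct repeat, the classical retinoic acid response element in which receptor half-sites stand 5 bases apart. The 29 bases are chr14:16575507-16575535, minus strand (GRCm38.p6, RefSeq), and capitals mark the repeat.
Rarb: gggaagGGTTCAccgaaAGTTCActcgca
The repeat lies 53 to 37 bases upstream of the RefSeq start and inside the first exon of the GENCODE model, whose 5′ end is 67 bases farther upstream. The pattern, GGTTCA and AGTTCA with any 5 bases between them, searched on both strands, was found in 2 of 32851 RefSeq windows, 0.00609%, and among members in Rarb alone. Its half-sites are those of the Rarb repeat itself, so the match in Rarb was fixed by the choice of pattern. Repeats of this spacing with other half-sites were not searched. The shorter half-site AGGTCA was found in 16.3% of all windows and in 10 of 57 member windows, 17.5%. A match describes the letters and is not evidence of binding.

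Vdr, the vitamin D receptor, was low and steady at 2.09 and 2.08 TPM. The enzymes that make and destroy active vitamin D were lower still: Cyp27b1 at 0.09 and 0.05 TPM, and Cyp24a1 with 0 reads in both. Targets split. S100g, the calcium-binding protein calbindin D9k, stood at 260 and 288 TPM, while the calcium channel Trpv6 stood at 0.31 and 0.25.

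RXR partners are shared by many of these receptors, which makes their relative amount of interest. Rxrb supplied most of it, at 32.5 and 31.4 TPM, or 77.2% and 75% of the RXR total. Rxra stood at 8.46 and 9.72 and Rxrg, which is best known in brain and muscle, at 1.15 and 0.74, below the detection level in replicate 2, from 65 and 38 reads. The 3 genes together gave 42.1 and 41.9 TPM. The 13 members counted here as RXR partners were Thra, Thrb, Rara, Rarb, Rarg, Vdr, all PPAR genes, Nr1h2, Nr1h3, Nr1i2 and Nr1i3. With all their transcript forms they summed to 242 and 257. That was 5.74 and 6.13 times the RXR total, 5.93 ± 0.271 (SD, n = 2). No other member was counted as a partner, so the ratio depends on that choice. Without length scaling the ratio was 4.43 and 4.55. These are RNA ratios and say nothing of protein amounts.

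Among the hormone receptors, those for thyroid hormone and glucocorticoid were abundant and those for sex steroids were not. Thra (mm10 chr11:98740638-98769006, plus strand), a thyroid hormone receptor needed for gut maturation, stood at 35.5 and 35.8 TPM. Thrb, the second thyroid receptor, stood at 3.35 and 4.18. The pair differed 9.31-fold by TPM, but by log2 1.82 rather than 3.22 in reads without length. The glucocorticoid receptor Nr3c1 stood at 33.5 and 32.7, and the mineralocorticoid receptor Nr3c2, which drives sodium uptake in the distal gut, at 3.39 and 3.73. The oestrogen receptor Esr1 was at 0.31 and 0.47, Esr2 at 0.03 and 0.05, and the progesterone receptor Pgr at 0.07 and 0.09. Those values rest on 49 and 60, 3 and 4, and 13 and 18 reads.

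Of the hormone-converting enzymes, Hsd17b2, which inactivates oestradiol and testosterone, was detected at 44.6 and 45.6 TPM, whereas Cyp19a1, the aromatase that makes oestrogen, had 0 reads. Dio1, which activates and clears thyroid hormone, was at 2.79 and 4.41, Dio3, which inactivates it, at 0.70 and 1.00, and Dio2, which activates it, at 0.07 and 0.06. Hsd11b2, which shields Nr3c2 from glucocorticoid, was at 1.64 and 1.94, and Hsd11b1, which regenerates glucocorticoid, at 0.77 and 1.02. The 4 glucocorticoid targets in the list were detected, with Tsc22d3 at 60.9 and 64.0, Sgk1 at 29.96 and 28.7, Fkbp5 at 18.4 and 22.7 and Per1 at 11.4 and 11.5. The sodium channel subunit Scnn1a, a mineralocorticoid target, was at 4.28 and 6.45. Of the 31 target genes it alone passed 1.5-fold between the pools, at 1.51-fold, with a mean count of at least 100 and deposited intervals apart. The count was reached by 24 of the 31. Over coding genes with that count 2.37% of 12885 passed, and with 24 targets 1 is near that share.

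**Figure D2:**
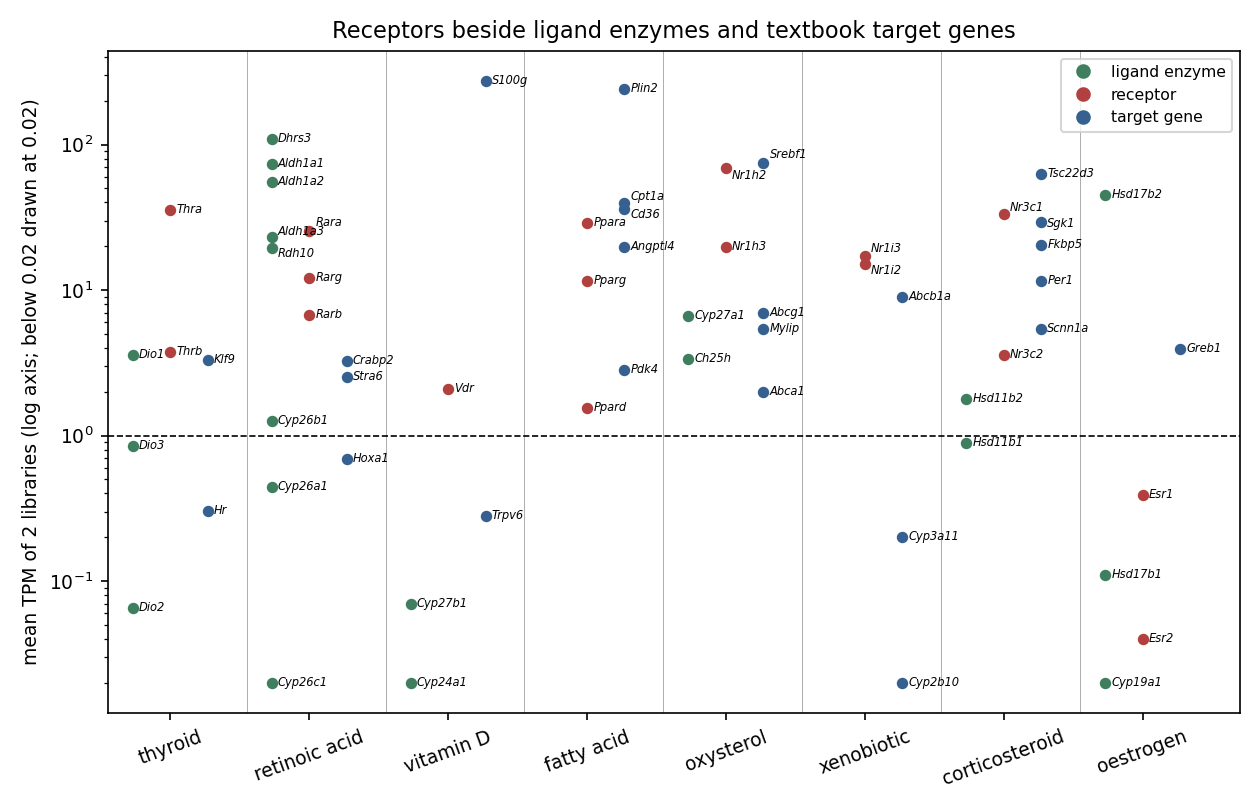
Mean TPM of the 2 libraries on a log axis for ligand enzymes (green), receptors (red) and textbook target genes (blue) of 8 hormone or lipid systems. The dashed line is 1 TPM, and means below 0.02 are drawn at 0.02. S100g and Plin2 lie highest, while Cyp24a1, Cyp19a1 and Cyp2b10 lie at the bottom with no read.

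Over the whole lists, 25 of 31 textbook targets, 12 of 21 ligand enzymes and 19 of 19 coregulators were detected. Coregulators are the proteins that receptors recruit, and their levels were led by Ncoa4 at 172 and 203 TPM, the deacetylase Hdac3 at 106 and 97.0 and the corepressor subunit Gps2 at 54.5 and 51.2. The coactivator Ncoa1 was lowest at 2.71 and 2.85. The corepressor Ncor1 was at 34.5 and 35.9. Of the 8 other family members 6 were detected, with Hnf4g at 79.1 and 94.2, Nr1h4 at 71.8 and 92.2 and Hnf4a at 73.9 and 75.4, each above every member in the list in both libraries. The lowest was Nr1h5 at 0.12 and 0.01.

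The orphan class was the widest, from the upper end of the list to no read at all. Nr2f6 (mm10 chr8:71374123-71381960, minus strand), a repressor of the COUP-TF family, stood at 30.6 and 43.5 TPM. Nr2f2 (COUP-TFII), a mesenchymal and venous regulator, stood at 13.2 and 11.7, and Nr2f1, its close relative of the nervous system, at 1.01 and 0.75. Esrra, a driver of mitochondrial genes, stood at 33.6 and 38.7, Esrrg, a relative of oxidative tissues, at 3.04 and 3.93 and Esrrb, of pluripotent cells, at 0.33 and 0.30. Nr2e3, known chiefly as a photoreceptor regulator, stood at 14.4 and 18.1. Nr2e1, a regulator of neural stem cells, had 0 reads in both, where a count of 0 allows up to 3 reads, or 0.0852 and 0.0877 TPM.

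The clock-linked orphans were low. Nr1d1 and Nr1d2, the REV-ERB repressors, stood at 1.93 and 2.31 and at 3.0 and 3.05 TPM, and Rora, the activator that competes with them, at 3.84 and 3.37. Rorb, of retina and brain, was at 0.35 and 0.37. Both pairs were apart, Rora over Rorb by 8.04-fold and Nr1d2 over Nr1d1 by 1.41-fold. Their clock targets Arntl and Clock were at 6.6 and 6.88 and at 3.82 and 4.44, and Npas2 at 0.59 and 0.77. Time of day at collection is not given in the labels. The testicular orphan receptors Nr2c1 and Nr2c2, repressors that bind direct repeats, were not apart, at 8.82 and 7.45 against 6.41 and 6.76. The germ cell factor Nr6a1 was at 1.38 and 1.17.

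The NR4A group needs no ligand and is regulated by rapid transcription after a stimulus. Nr4a1 stood at 8.41 and 7.13 TPM, Nr4a2 at 2.45 and 2.30 and Nr4a3 at 0.13 and 0.06. The order was the same in both libraries, and Nr4a1 exceeded Nr4a3 by 40.9-fold, with 5 reads on Nr4a3 in each library. The upstream sequences of all 3 are shown because each holds several copies of the cAMP response half-site. Capitals mark TGACG or its complement CGTCA, at chr15:101266596-101266845, plus strand for Nr4a1, chr2:57124004-57124253, minus strand for Nr4a2, and chr4:48045055-48045152, plus strand for Nr4a3 (GRCm38.p6, RefSeq).
Nr4a1: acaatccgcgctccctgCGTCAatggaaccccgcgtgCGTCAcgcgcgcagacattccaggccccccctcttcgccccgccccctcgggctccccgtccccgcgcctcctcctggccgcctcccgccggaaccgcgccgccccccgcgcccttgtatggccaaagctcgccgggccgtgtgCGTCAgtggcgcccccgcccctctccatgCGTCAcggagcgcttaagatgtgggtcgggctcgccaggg
Nr4a2: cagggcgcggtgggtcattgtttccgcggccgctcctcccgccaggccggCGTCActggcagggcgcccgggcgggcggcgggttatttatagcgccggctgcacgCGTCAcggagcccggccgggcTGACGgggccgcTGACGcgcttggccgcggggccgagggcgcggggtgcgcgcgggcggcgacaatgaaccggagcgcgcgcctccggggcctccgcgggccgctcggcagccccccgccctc
Nr4a3: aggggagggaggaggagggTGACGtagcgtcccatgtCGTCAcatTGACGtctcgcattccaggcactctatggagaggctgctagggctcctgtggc
Nr4a1 and Nr4a2 show 4 copies each and Nr4a3 shows 3 here, and another lies closer to the start than the printed stretch. At least 1 copy on either strand occurs in 20.8% of all windows, and at least 4 in 76 of 32851, 0.231%. Among members only these 3 genes had at least 4, and they had very different RNA levels in this tissue.

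Nr0b1, a cofactor of adrenal and gonad development, stood at 0.22 TPM with 11 reads in replicate 1 and 0.04 with 2 reads in replicate 2. The ratio per read on genes was 5.43, with an exact 95% interval from 1.19 to 50.4 that covers counting error only. It moved with the adrenal and gonad marker sum given above, which was 8.79 times higher in replicate 1, and with the steroidogenic regulator Nr5a1, which was at 1.15 and 0.10 TPM from 96 and 8 reads. The share of such tissue in the Nr0b1 difference was not tested.

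In all, 24 of 26 within-subfamily pairs were apart by the rule of same sign in both libraries and a mean log2 ratio above 3 SD, and 21 were at least 2-fold apart in both. The exceptions were Nr1i3 with Nr1i2 and Nr2c1 with Nr2c2, and with only complete coding transcripts counted both of these pairs were apart, Nr2c1 over Nr2c2 at log2 1.39. Without length scaling Nr2f6 and Nr2f2 were not apart either, at log2 0.75. With 2 libraries the smallest p of an exact two-sided sign-flip test is 0.5, so no p is given.

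The deposited tables split each gene into annotated transcripts, and receptors differed in whether the reads were assigned to full coding forms. Of the 27 detected members with at least 2 annotated transcripts, 25 had the same leading transcript in both libraries. Counting only transcripts with a complete coding sequence, 28 members passed detection. Of all 40 members, detected or not, 22 kept over 90% of their level in both libraries. The members that kept less than 50% in both were Nr3c1, Nr2e3, Nr2c2, Nr3c2, Nr6a1, Nr4a3 and Esr2. In Nr6a1 the main model left out, Nr6a1-202, is marked incomplete but has 495 codons, as many as the complete Nr6a1-201. For Nr3c1 the complete forms held 9.34 and 12.1 TPM, 27.9% and 36.9% of the gene, and the leading transcript, Nr3c1-208 at 63.4% and 55.3%, is an incomplete model 1891 nt long. Nr3c1 moves from place 5 to place 13 among the members by complete forms. Nr3c2 was under 1 TPM in replicate 2, at 1.00 and 0.74, and its leading model Nr3c2-206 is 612 nt long. A short model gives more TPM per read than a long one. The leading model of Nr2c2, Nr2c2-203, is 1065 nt long and incomplete, and held 51.1% and 54.7%.

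**Figure D3:**
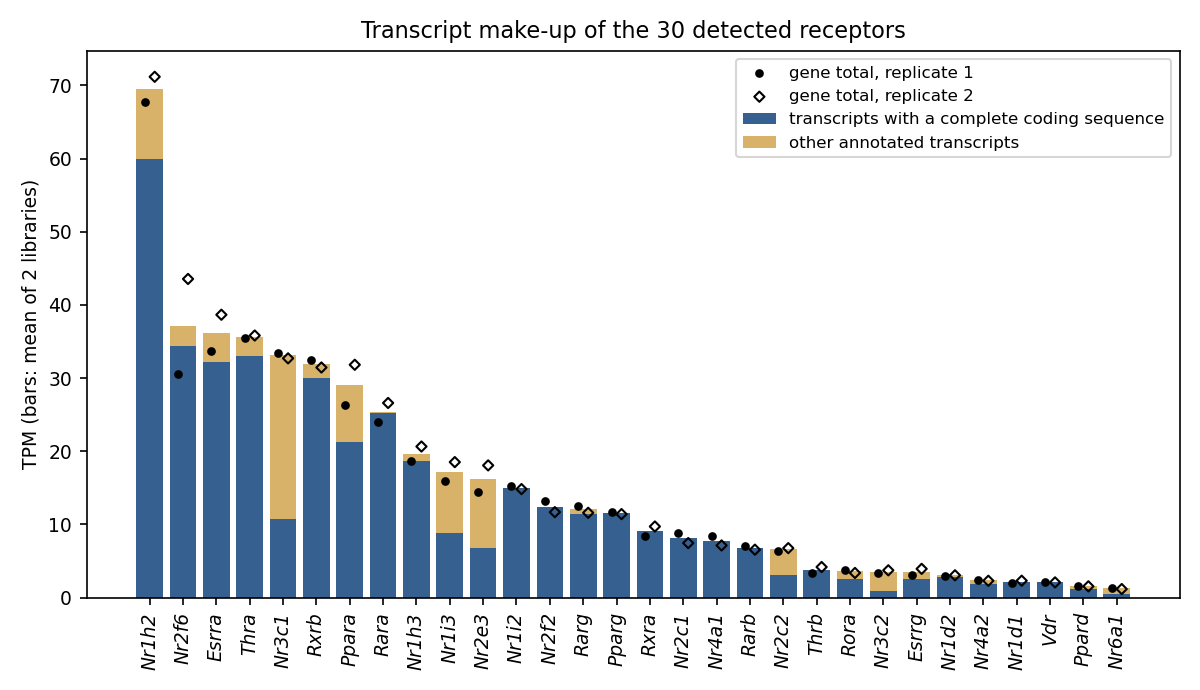
Level of the 30 detected receptors as mean TPM of 2 libraries, divided into transcripts with a complete coding sequence (blue) and other annotated transcripts (tan), with each library's gene total as a circle (replicate 1) or diamond (replicate 2). Nr3c1, Nr2e3 and Nr3c2 hold mostly other transcripts, whereas Rxra, Rarb, Pparg and Nr1i2 hold complete forms only.

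Several receptors have forms with known differences in function. Thra-201 has 492 codons and Thra-202 has 410, matching the alpha2 form, which does not bind hormone, and the alpha1 receptor. Thra-201 held 56.3% and 55.9% of Thra, or 20.0 and 20.03 TPM, and Thra-202 held 36.3% and 36.5%, so the form that does not bind hormone was the larger in both libraries. Thra-201 reaches into Nr1d1 on the opposite strand whereas Thra-202 ends before it, and the effect of that overlap on its share was not tested. Pparg was assigned almost wholly to Pparg-202, the Pparg1 form, at 99.95% and 100%. Rarg was divided between Rarg-202 at 76.7% and 66.1% and Rarg-201 at 15.8% and 30.2%. Rxrb-202 held 62.5% and 63.1% of Rxrb. Nr1h2 was led by Nr1h2-204 at 41.2% and 42.1% and Nr1h3 by Nr1h3-202 at 48.9% and 50.6%. For these LXR genes the forms differed little in coding length. Nr1h2-204 has 446 codons and the next form, Nr1h2-203, has 443, while Nr1h3-202 and Nr1h3-201 have 445 each. No difference in function is meant for them.

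Most other detected receptors were led by 1 complete coding form in both libraries. Rxra-201 and Vdr-201 held 100% each, Thrb-203 held 94.2% and 95.2%, Nr2f6-201 held 95.4% and 90.7%, and Esrra-201 held 88.5% and 89.4%. Nr1d1-201 held 100% and 95.6% and Nr1d2-201 held 93.0% and 91.8%. The leading shares were lower for Nr2f2-201 at 76.8% and 78.1%, Ppard-201 at 78.2% and 77.2%, Nr4a2-203 at 76.4% and 64.2%, and Esrrg-201 at 70.1% and 74.6%. They were lower again for Nr2c1-203 at 58.2% and 56.9%, Ppara-201 at 56.8% and 53.2%, Rara-202 at 45.4% and 40.2%, and Nr2e3-201 at 43.9% and 40.1%. Nr2c1-203 and the next form, Nr2c1-201, have 590 codons each.

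Leading transcripts differed between the libraries for Nr1i3 and Nr6a1. In Nr1i3, Nr1i3-204, marked for nonsense-mediated decay, led replicate 1 at 23.7%, and Nr1i3-205, a retained intron, led replicate 2 at 29.4%. In Nr6a1, Nr6a1-201 led replicate 1 at 49.3% and Nr6a1-202 led replicate 2 at 76.9%. By the deposited posterior shares Nr6a1-202 led both libraries. By complete coding forms the log2 ratio of Nr1i3 over Nr1i2 was -0.76, and the pair was apart with Nr1i2 higher. Nr2e3-202, a retained intron, held 38.8% and 38.9% of Nr2e3. Ppara-206, a noncoding model 367 nt long, held 22.4% and 28.6% of Ppara. Rora-202 held 53.1% and 69.2% of Rora.

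Reads shared between overlapping genes were divided by the authors' quantification. 5 members had estimated counts that were not whole and an overlapping coding gene on the opposite strand with which they summed to a whole number within 0.015. Thra and Nr1d1, which overlap tail to tail on chromosome 11, summed to 2401 and 2386 reads. Nr2f6 and Ocel1 summed to 2278 and 3070, Nr1i3 and Tomm40l to 2579 and 2635, and Nr2c2 and Mrps25 to 3509 and 3292. Reads from such partners could not be told apart where strand was not kept, and the labels do not say whether it was. Ocel1 moved with Nr2f6, at 5.38 and 7.23 TPM, and its part in the Nr2f6 values was not tested.

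Between the pools the receptors differed little. Of 30 members with a mean estimated count of at least 100, none was called at 1.5-fold with deposited intervals apart, where 2.37% of 12885 coding genes were called, and with 30 members 0 is near that share. The deposited intervals were apart for 5 members, 16.7%, against 26.3% of coding genes. All 5 were higher in replicate 2. Over coding genes the 2 directions were close. Intervals were apart with replicate 2 higher in 13.7% of them, and with replicate 1 higher in 12.6%. Among these 5 Nr2f6 moved most, 1.44-fold, followed by Nr2e3 at 1.26-fold, Thrb at log2 0.33, and Esrra and Rxra at 1.16-fold each. Esrrg moved 1.30-fold with intervals that overlapped. A total of 17 members were higher in replicate 2 and 13 in replicate 1, and 56.7% stands near the 50.1% over coding genes. The median size of the log2 difference was 0.16, against 0.11 over all coding genes. The common biological coefficient of variation over all genes was 0.105 between libraries. Textbook targets were higher in replicate 2 in 20 of the 24 with a mean count of at least 100, beside 50.1% of coding genes, with a median log2 difference of 0.21. Epithelial markers moved the same way in 7 of 8 cases, with their sum 1.22 times as high in replicate 2, and pancreas markers in 5 of 5, with their sum 1.30 times as high. The rise in the epithelial sum rested mostly on Fabp2 at 1.63-fold and Fabp1 at 1.38-fold. The other epithelial markers lay between 0.963-fold for Krt8 and 1.19-fold for Vil1, with Epcam at 1.00-fold. The part of either marker set in the target difference was not tested.

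**Figure D4:**
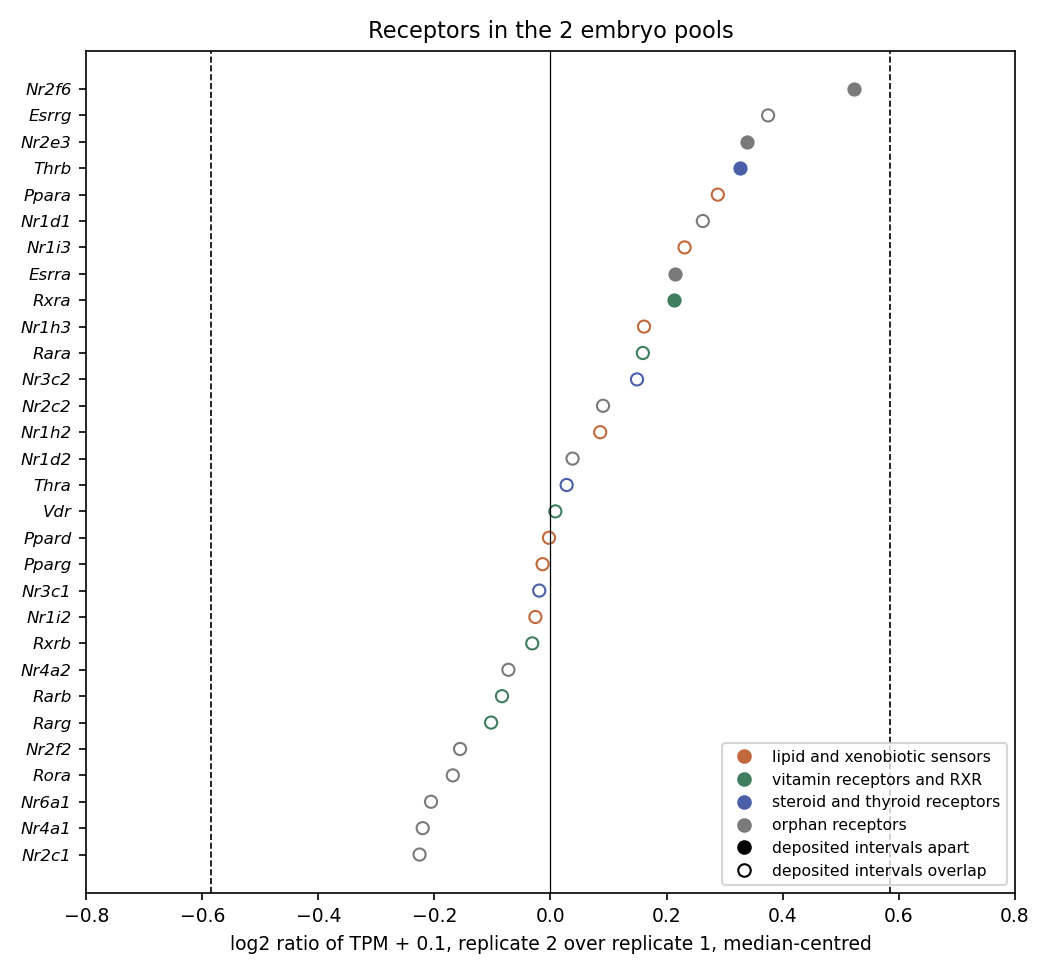
Log2 ratio of TPM + 0.1 in replicate 2 over replicate 1, centred on the median of coding genes, for the 30 receptors with a mean count of at least 100. Filled points have deposited intervals apart, dashed lines mark 1.5-fold, and colours give the class. No receptor reaches a dashed line, and the 5 filled points, led by Nr2f6, all lie right of 0.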

How the data were processed

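Total RNA-seq of E16.5 mouse intestine was described from the authors' gene and transcript tables, 1 pair per library. Per the file headers, the deposited values are expected counts (estimated reads, with shared reads divided), TPM (scaled by effective length over all features, spike-ins included), posterior mean TPM, and the percent of each gene that a transcript holds. Interval bounds of TPM, a non-negative signal, were deposited too. Their level is not stated, and they centre on the posterior mean, so a TPM can lie outside its own bounds. Reads were assigned to GENCODE M4 on mm10, per the file headers and deposited text. Aligner and quantifier: not given in the sources used here. Of 43346 gene IDs, 42462 were named through GENCODE M21. Features that name no gene held 0.000147% and 0.000157% of counts and stayed out, and 96 spike-ins held 1.81% and 1.74%.

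The 40 members, their classes and all gene lists were chosen with earlier results of these data known. The naming rule took all members and, of each other list, the 3 highest genes, the lowest and those past 1.5-fold between pools. Other genes named were chosen after their values were seen, and a few that the rule takes in are not named here. Detection asked for 1 TPM in each library. Log2 ratios used a pseudocount of 0.1, and those between pools were centred on the median of coding genes (-0.015). The spread over all genes came from edgeR (4.0.16; R 4.3.3) fitted to rounded expected counts (TMM, at least 10 in both libraries). Other steps used Python 3.11.15 with numpy 2.4.6, scipy 1.17.1 and pandas 2.3.3. The pool call and the spread were also run on simulated data. Intervals there were set from the simulated counts, so the deposited intervals that the pool call uses were not tested. Nothing shows that the pools are independent beyond their separate biosample records, so the spread may be partly technical. Transcripts counted as complete coding forms where GENCODE M21 marks no missing start or end. RefSeq promoter windows were matched by symbol for 38 members, and the other 2 are Thra and Nr3c1. Alternatives covered thresholds, pseudocounts, filters, TMM or DESeq2 (1.42.0) scaling, posterior means, reads without length, single libraries and, added after seeing the data, complete coding transcripts only.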

Additional observations from a re-analysis of the deposited data

How the results depend on the processing

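Counts of detected members ranged from 27 (a threshold of 2) to 33 (reads without length). Pairs apart ranged from 23 to 26 by the 3 SD rule, and 21 passed a 2-fold rule in both libraries. Leaving out either library gave 30 and 32 detected members. A single library has no SD, so its pairs were counted at 2-fold or more, which gave 22 and 21. In reads without length the lipid share was 26.7%, the vitamin share 22.1%, the steroid and thyroid share 19.2% and the orphan share 31.9%, so the orphan class stood ahead of the lipid class. With complete coding transcripts, a setting chosen after seeing the data, the lipid share was 35.1%, the vitamin share 21.9% and the steroid and thyroid share 12.5%. With posterior means the lipid share was 34.2%. At the loosest fold minimum tried, 3 members differed between pools (Nr2e3, Nr2f6 and Thrb), against 0 in each other setting. The coefficient of variation was 0.112 with no filter beyond a count above 0 and 0.0969 with at least 100 counts. The other 53 of 64 alternative values stayed within the library spread or 1.5 times the count. The causes of the moves were not tested. No paired analysis was possible because the series has a single group. With 2 libraries an SD rests on a single difference, and members below 1 TPM rest on at most 82 reads.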
